A study of Mus musculus with 20 samples.

Results

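The expression of 10 genes of the luminal mammary epithelium was followed across a bulk RNA-seq series of 20 mouse tumours: the simple keratin genes Krt7, Krt8, Krt18 and Krt19, the adhesion genes Epcam and Cdh1, and the tight junction genes Cldn3, Cldn4, Cldn7 and Ocln. The genes were taken from a list of names, and each was represented by its transcript with the highest total over the 20 libraries, as was every other gene of the table. The 10 genes are 10 of 38947 named genes, and all 10 were among the 19844 that passed the filter on low values.

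The tumours grew from SSM3 cells, an oestrogen receptor-positive mouse mammary tumour line, placed in the fourth inguinal mammary gland of immunocompetent 129/SvEv mice (129S6/SvEv in the growth protocol) aged 2 to 4 months. Treatment started at tumour volumes near 150 mm3 and each of the 4 groups held 5 tumours. Vehicle mice had sham surgery and then 5% ethanol in saline under the skin each day for 25 days. Anti-PD-1 mice had the same, plus 250 µg of antibody against the T cell checkpoint receptor PD-1 on days 3, 5 and 7 after surgery. Letrozole mice were ovariectomised and given 1 mg/kg of letrozole, an inhibitor of oestrogen synthesis, in the same 5% ethanol for 25 days, and the letrozole + anti-PD-1 group had the surgery, the drug and the antibody. Surgery and drug were always given together, so their effects cannot be told apart, and "letrozole" stands for both. All tumours came from the same cell line, so the 5 tumours of a group sample hosts and grafts and not different cancers. The p-values measure the spread between these tumours.

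Simple epithelia carry intermediate filaments made of paired keratins: type II keratins such as keratin 7 and keratin 8 assemble with type I partners such as keratin 18 and keratin 19. E-cadherin, encoded by Cdh1, holds neighbouring cells together at adherens junctions, while claudins and occludin form the tight junctions that seal the space between cells. EpCAM is an epithelial adhesion protein that is known to bind claudin-7. In the mammary gland the simple keratins mark luminal rather than basal cells, and in mammary carcinomas all of these genes are known to be expressed mainly by the tumour cells.

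Epcam was the member that changed. It was 1.44-fold higher in the letrozole-treated tumours than in the others, averaged over the arms with and without antibody (95% interval 1.26 to 1.64, limma adjusted p = 0.00142). The remaining 9 genes did not pass the test in any of 8 comparisons, and most of them varied little: the highest of the 20 tumours was at most 1.65 times the lowest for Krt7, Krt18, Cldn3 and Ocln, and at most 2.05 times for Krt8, Krt19, Cldn4 and Cldn7. Cdh1 had a 4.65-fold range without a called difference. In bulk tissue, fewer cells of a type and less RNA per cell cannot be told apart.

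The counts of called members were set against all tested genes. For letrozole against vehicle limma called 0 of 10 members (1 at an unadjusted p under 0.05, 0 by edgeR, 1 by DESeq2), against 0.957% of all 19844 genes. Those were 190 genes, 81 higher and 109 lower, or 40 higher and 99 lower with each library centred on its median. In the same comparison 2746 of 19844 genes were at an unadjusted p under 0.05, 166 of 19844 were called by edgeR and 622 of 19772 by DESeq2. Epcam was also the 1 member of 10 whose groups did not overlap there, against 3.67% of genes. For letrozole + anti-PD-1 against anti-PD-1 it called 1 of 10, against 1.07%, and for letrozole + anti-PD-1 against vehicle 1 of 10, against 1.18%, with groups that did not overlap for the same gene against 2.91%. With antibody, the groups overlapped for all 10 members, against 2.84% of genes whose groups did not. For letrozole averaged over both arms it called 1 of 10, higher, against 7% of genes in either direction and 3.29% higher. The 10 letrozole-treated and the 10 other tumours overlapped for all 10 members, against 0.454% of genes for which they did not. In each case the 1 member was Epcam, so the share says nothing about the list.

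The members' median log2 difference lay close to that of all genes, above it or below it, depending on the comparison. It was 0.02 for letrozole against vehicle, where the median of all tested genes was 0.03, and 5 of 10 members were higher against 53.4% of genes. Averaged over both arms it was 0.06 against 0.03, with 8 of 10 higher against 54.1%. For letrozole + anti-PD-1 against anti-PD-1 it was 0.12 against 0.03, with 7 of 10 higher against 53.9%. For the interaction it was 0.07 against −0.01, with 7 of 10 higher against 48.3%. For letrozole + anti-PD-1 against vehicle it was 0.01 against 0.03, with 5 of 10 higher against 54.0%. For letrozole + anti-PD-1 against letrozole it was 0.01 against −0.01, with 6 of 10 higher against 47.8%. Anti-PD-1 against vehicle gave 0.01 against 0.00, with 5 of 10 higher against 50.1%. Anti-PD-1 averaged over both letrozole arms gave −0.04 against −0.01, with 4 of 10 higher against 48.5%. The comparisons share tumours, so they are not independent of each other.

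Between 12456356 and 31301954 reads were recovered per library on 1 transcript per gene, with group medians of 23290240 for vehicle, 15974679 for anti-PD-1, 25180773 for letrozole and 26706421 for letrozole + anti-PD-1. Anti-PD-1 replicate 1 had the fewest reads and 20969 detected genes, against at least 23946 elsewhere. Vehicle replicate 3 had the highest fibroblast marker mean, 10.8 on the log2(value + 1) scale, against 5.63 to 8.90 in the other vehicle tumours. Letrozole replicates 1, 4 and 5 and letrozole + anti-PD-1 replicate 2 had skeletal muscle marker means of 6.37 to 7.60, against 1.39 to 3.75 in the other 16 tumours. Calls of members with and without these libraries are given beside the results and under the dependence on processing. Without the 4 tumours with raised muscle markers, only replicates 2 and 3 of the letrozole group remained. Calls lost in that fit cannot be told apart from an effect of fewer tumours.

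The level of each gene bears on the label of luminal epithelium. Per kilobase of transcript, Krt19 averaged 66985 normalised counts and ranked 9 of 19844 tested genes. Krt8 ranked 23 at 29207, Krt18 46 at 19499.6 and Epcam 71 at 11919.9. Cldn3 followed at 6038, Cdh1 at 4987, Cldn4 at 4491, Krt7 at 3932 and Cldn7 at 3189.8, and Ocln was lowest at 806, which is still above 89.4% of tested genes. On the mouse genome Krt7, Krt8 and Krt18 lie on chromosome 15, Krt19 and Cldn7 on 11, Epcam on 17, Cdh1 on 8, Cldn3 and Cldn4 on 5 and Ocln on 13. None of the 10 was at 0 in any tumour. The basal keratins and Trp63, 8 genes together, were also expressed, with sums of 4495 to 43857 normalised counts per tumour, and Trp63, the basal cell regulator, was the only one of the 8 at 0 in any tumour (5 of 20).

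The order of levels per kilobase was fixed for the most abundant members and for the lowest. Krt19 stood above Krt8, Krt8 above Krt18, Krt18 above Epcam and Epcam above Cldn3 in 20 of 20 tumours, and Cldn7 stood above Ocln in 20. In the middle, Cldn3 exceeded Cdh1 in 15 of 20, Cdh1 exceeded Cldn4 in 14, Cldn4 exceeded Krt7 in 16 and Krt7 exceeded Cldn7 in 19, so these neighbours were not separated in every tumour. Krt7 is represented by a transcript annotated with a retained intron (ENSMUST00000131069), and the coding transcript ENSMUST00000068904 totalled 99.2% of it, and transcripts of a gene can share reads.

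Spread among tumours of a group differed between members. The residual SD on the log2 scale was lowest for Cldn3 at 0.16 and, at 0.17, for Ocln and Krt7. It was 0.19 for Krt18, 0.20 for Epcam and 0.21 for Krt19, close to the median of 0.20 over the 1419 tested genes at or above the mean level of Ocln. Cdh1 had the largest at 0.44, above 92.5% of those 1419 genes.

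**Figure D1:**
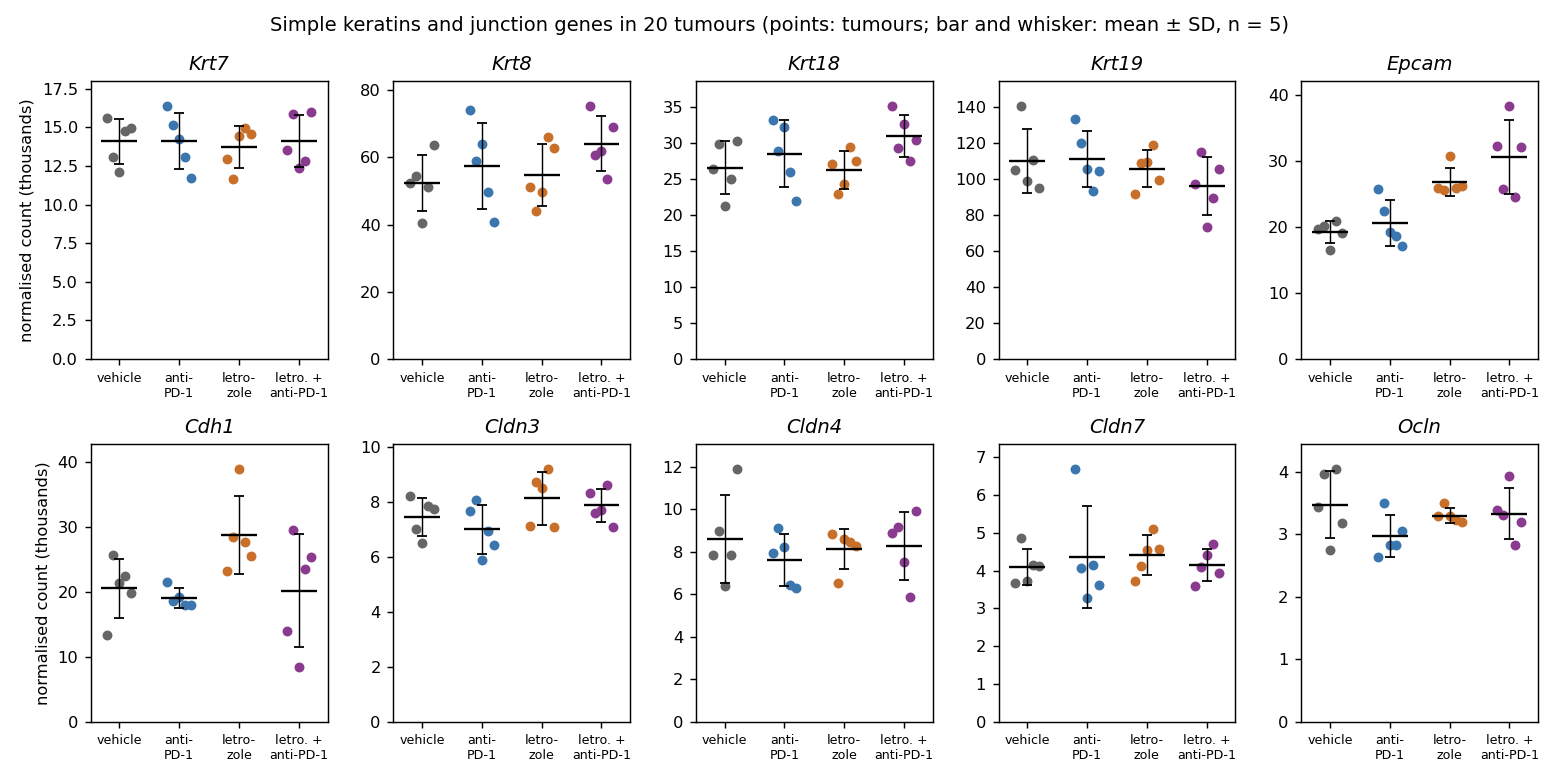
Normalised counts (y axis, starting at 0, scaled as its label says) of the 10 genes in the 4 treatment groups (x axis), with 1 point per tumour and bars for the mean and SD of 5. Epcam sits higher in both letrozole groups, Cdh1 is scattered in the letrozole + anti-PD-1 group, and the other panels overlap across groups.

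Krt8 and Krt18, the genes of the type II and type I partners of simple epithelia, moved together from tumour to tumour. Krt8 was 52346, 54460.1, 40513.5, 51166 and 63631.5 normalised counts in vehicle tumours 1 to 5 and 74083, 58970.2, 63992, 49712 and 40710.8 in anti-PD-1 tumours. The letrozole tumours had 51246, 44127, 49668, 65998 and 62670.2, and the letrozole + anti-PD-1 tumours 75222, 60613, 61929.5, 53714 and 68957. Vehicle replicate 3 and anti-PD-1 replicate 5 were the lowest and letrozole + anti-PD-1 replicate 1 the highest, and all 4 groups overlapped.

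Krt18 averaged 26529 ± 3711 normalised counts in vehicle, 28437 ± 4637 in anti-PD-1, 26173 ± 2618 in letrozole and 30945 ± 2942 in letrozole + anti-PD-1 tumours (mean ± SD, n = 5 each). Its lowest tumours were vehicle replicate 3 at 21203 and anti-PD-1 replicate 5 at 21900.3, the same as for Krt8. Across the 20 tumours the log2 levels of the pair correlated with r = 0.94 and rho = 0.93, the highest r that either gene had with any tested gene other than predicted genes, which were not searched. Without the 2 tumours farthest from the median r was 0.90. For letrozole averaged over both arms, Krt8 differed by 0.12 on the log2 scale (95% interval −0.12 to 0.36) and Krt18 by 0.06 (−0.12 to 0.24), neither called. The combination was 0.30 above vehicle for Krt8 (−0.04 to 0.63, limma adjusted p = 0.460) and 0.23 for Krt18 (−0.03 to 0.49, adjusted p = 0.456).

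The Krt8 to Krt18 ratio of normalised counts stayed between 1.83 and 2.28 in all 20 tumours, with a median of 2.01. Its group means were 1.97 ± 0.11 in vehicle, 2.01 ± 0.14 in anti-PD-1, 2.08 ± 0.18 in letrozole and 2.07 ± 0.15 in letrozole + anti-PD-1 tumours. A ratio within a library does not depend on how libraries are scaled. None of the 5 pairwise comparisons of the log2 ratio passed an exact two-sided permutation test, with p from 0.278 to 0.944 (adjusted over the 5, 0.714 to 0.944), where 0.00794 is the smallest p that 5 against 5 allows. The largest difference was 0.07 on the log2 scale, for letrozole against vehicle.

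Krt8 and Krt18 lie on mouse chromosome 15 in the same neighbourhood, and the 250 bases before each start are shown because the pair moved together. Of the exon bases of Krt8, 5.16% are shared on the opposite strand with the predicted gene Gm36026, so strand-blind counting could mix them. The sequences are from RefSeq on build GRCm38.p6, 5′ to 3′ on the gene's strand, at chr15:102004343-102004592 on the minus strand for Krt8 and chr15:102027966-102028215 on the plus strand for Krt18. Capitals mark CACCTG, the E-box that the repressors of the Snail and Zeb families are known to bind, read on either strand (reverse complement CAGGTG).
Krt8: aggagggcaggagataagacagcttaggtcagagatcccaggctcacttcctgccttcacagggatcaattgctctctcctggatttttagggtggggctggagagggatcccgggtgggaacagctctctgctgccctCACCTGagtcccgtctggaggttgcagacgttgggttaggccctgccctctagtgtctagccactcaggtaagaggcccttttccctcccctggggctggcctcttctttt
Krt18: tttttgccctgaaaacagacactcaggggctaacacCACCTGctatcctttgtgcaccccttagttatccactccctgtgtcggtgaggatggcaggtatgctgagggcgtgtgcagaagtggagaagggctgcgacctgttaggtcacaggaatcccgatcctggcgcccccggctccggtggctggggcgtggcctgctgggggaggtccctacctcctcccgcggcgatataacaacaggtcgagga
Each holds 1 match, 111 bases before the start in Krt8 and 214 in Krt18. Each also holds 1 match of AGGTCA (reverse complement TGACCT), the half-site of the oestrogen response element, at 225 and 108 bases.

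The other keratins showed no called difference. Krt7 averaged 14098 ± 1455 normalised counts in vehicle, 14114 ± 1787 in anti-PD-1, 13716 ± 1372 in letrozole and 14108 ± 1709.7 in letrozole + anti-PD-1 tumours. Its letrozole difference averaged over both arms was −0.02 on the log2 scale with a 95% interval of −0.18 to 0.14. Krt19, the most abundant member, averaged 109782 ± 17923, 111098 ± 15566, 105425 ± 10285 and 95966 ± 15859 in the same order. Its letrozole difference was −0.13 (−0.35 to 0.08). Letrozole + anti-PD-1 replicate 3 was lowest of all 20 at 73261, and all 3 Krt19 transcripts were lowest in that tumour.

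Epcam, which encodes the epithelial cell adhesion molecule, was the member with a called change. Vehicle tumours 1 to 5 had 19689, 20211, 16443, 20882 and 19049 normalised counts, and letrozole tumours had 25841.5, 25596.5, 30663.5, 25918 and 26188. All 5 letrozole tumours were above all 5 vehicle tumours. In the anti-PD-1 group the values were 25687, 22386.5, 19223, 18581 and 17037, and with both treatments 32183, 25772.5, 38255, 24589.7 and 32137. There the groups overlapped: anti-PD-1 replicate 1, the library with the fewest reads, was above the lowest letrozole + anti-PD-1 tumour, and 4 of 5 treated tumours exceeded it.

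Group means were 19255 ± 1711, 20583 ± 3455, 26841 ± 2147 and 30588 ± 5543 normalised counts for vehicle, antibody alone, letrozole alone and both (SD, n = 5 each). Among mice given the antibody, Epcam was 1.48-fold higher with letrozole (log2 0.57, SE 0.13, limma adjusted p = 0.0323). The combination exceeded vehicle 1.57-fold (log2 0.65, SE 0.13, adjusted p = 0.0106), with no overlap between the groups. Without antibody, letrozole stood 1.40-fold above vehicle (log2 0.48, SE 0.13, 95% interval 1.16-fold to 1.68-fold), which missed the threshold (limma adjusted p = 0.0762). The difference between the arms with and without antibody was 0.09 on the log2 scale (95% interval −0.29 to 0.46), which did not pass the test. Of the 10 letrozole-treated tumours, 8 were above all 10 others.

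The call averaged over both arms was made in 35 of 35 alternative settings. The call among antibody-treated mice was lost without any one of 6 tumours: adjusted p was 0.0549, 0.102 and 0.0662 without anti-PD-1 replicates 3, 4 and 5, and 0.0856, 0.0767 and 0.0828 without letrozole + anti-PD-1 replicates 1, 3 and 5. Without antibody, Epcam did pass when anti-PD-1 replicate 1 (adjusted p = 0.0455) or letrozole + anti-PD-1 replicate 3 (0.0496) was left out of the shared estimate of spread. The log2 difference averaged over both arms was 0.59 without the 4 tumours with raised muscle markers (adjusted p = 0.0179) and 0.54 without vehicle replicate 3 and anti-PD-1 replicate 1 (adjusted p = 0.000582).

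All 5 Epcam transcripts in the table gave letrozole differences of 0.50 to 0.58 on the log2 scale, and all 5 were highest in letrozole + anti-PD-1 replicate 3. Set against Krt8 within each library, a comparison added after seeing the data, the Epcam to Krt8 ratio averaged 0.37 ± 0.04 in vehicle, 0.36 ± 0.04 in anti-PD-1, 0.50 ± 0.10 in letrozole and 0.48 ± 0.08 in letrozole + anti-PD-1 tumours. With antibody, all 5 letrozole-treated tumours were above all 5 others (log2 difference 0.39, exact two-sided permutation p = 0.00794, adjusted over 5 comparisons 0.0198). Without antibody 4 of 5 were (log2 difference 0.42, exact permutation p = 0.0317, adjusted 0.0529). Epcam was chosen for this ratio because it was higher in these same tumours. The adjustment does not cover the choice of Epcam or of Krt8. These p-values are therefore descriptive and are not a separate test of the Epcam difference. The ratios show only that Epcam was also higher relative to Krt8 within libraries, whatever the library scaling.

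The 250 bases before the Epcam start, at chr17:87635729-87635978 on the plus strand of GRCm38.p6, are shown because Epcam was the member that changed. Capitals mark CACCTG or CAGGTG as above, and ACCGGT, the palindromic core that grainyhead-like factors, regulators of epithelial junction genes, are known to bind.
Epcam: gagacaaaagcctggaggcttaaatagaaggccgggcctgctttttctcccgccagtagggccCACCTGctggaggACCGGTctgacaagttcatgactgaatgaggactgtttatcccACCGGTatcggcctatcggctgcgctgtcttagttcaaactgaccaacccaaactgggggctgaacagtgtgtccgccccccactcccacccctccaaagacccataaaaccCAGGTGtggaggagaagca
Epcam holds CACCTG at 187 and CAGGTG at 19 bases before the start, and ACCGGT at 174 and 131. No AGGTCA half-site was matched in this window.

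Of the 10 members, 8 have entries in the promoter table, 10 entries in all, and Cdh1 and Krt19 are not in it. CACCTG or CAGGTG was in 7 of those 8 genes (Krt7, Krt8, Krt18, Epcam, Cldn4, Cldn7 and Ocln), or 7 of 10 entries, against 17.2% of 32851 promoters over the same 250 bases. ACCGGT was in 1 of 8, Epcam, or 1 of 10 entries, against 1.86% of all promoters, and its longer form AACCGGTT was in none, against 0.116%. AGGTCA or TGACCT was in 5 of 8 genes (Krt8, Krt18, Cldn4, Cldn7 and Ocln), or 6 of 10 entries, against 14.0% of all promoters. In the members no match of 1 motif overlapped a match of another, and all matches are letter matches only.

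Cdh1, which encodes E-cadherin, was the most variable member. It had 13293, 25698, 21327, 22397 and 19759 normalised counts in vehicle tumours 1 to 5 and 21517, 18543, 19142, 18011 and 17883.5 in anti-PD-1 tumours. In letrozole tumours it had 23200.4, 28426, 38847, 27666 and 25538, and in letrozole + anti-PD-1 tumours 13946, 29506, 8359, 23429 and 25316.5. Letrozole + anti-PD-1 replicates 1 and 3 and vehicle replicate 1 were the 3 lowest of the 20, while letrozole replicate 3 was the highest, and the groups overlapped in all 5 pairwise comparisons made.

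The means were 20495 ± 4577, 19019 ± 1482, 28735.5 ± 6007 and 20111 ± 8696 in vehicle tumours, those given the antibody, those given letrozole and those given both. Letrozole was 0.50 above vehicle on the log2 scale (95% interval −0.03 to 1.03, limma adjusted p = 0.395). The combination was 0.63 below letrozole alone (−1.16 to −0.10, unadjusted p = 0.0226, adjusted p = 1), and 0.35 below it without letrozole + anti-PD-1 replicate 3. The interaction was −0.55 (−1.30 to 0.20). None of these passed, and the intervals allow differences of more than 0.5 in either arm.

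In letrozole + anti-PD-1 replicate 3, all 3 Cdh1 transcripts were at their lowest of the 20 tumours, all 3 Krt19 transcripts were too, and all 5 Epcam transcripts were at their highest. That library had 27943722 reads and 26565 detected genes, and its fibroblast mean of 8.63 was inside the range of its group (8.20 to 10.31). Across the 20 tumours Epcam and Cdh1 had r = −0.05 and rho = 0.28. Without letrozole + anti-PD-1 replicate 3, left out after seeing the data, r was 0.41 and rho 0.49 (n = 19), so the value over all 20 rests on that tumour.

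**Figure D2:**
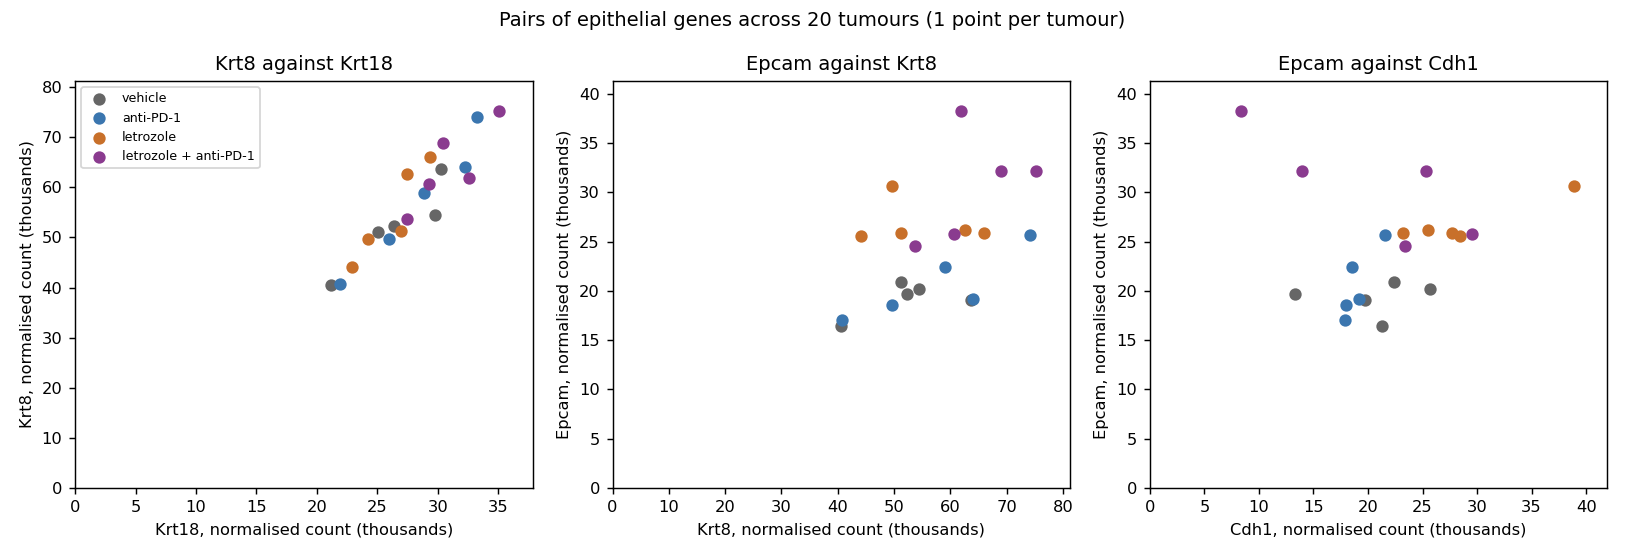
Normalised counts, scaled as the axis labels say, of Krt8 against Krt18, Epcam against Krt8 and Epcam against Cdh1, 1 point per tumour, coloured by group, with all axes starting at 0. Krt8 and Krt18 fall close to a line in every group, and most tumours of the letrozole groups lie above the others for Epcam at like Krt8. Epcam against Cdh1 shows a scatter whose top left point is letrozole + anti-PD-1 replicate 3.

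No tight junction member was called in any comparison. Cldn3, a sealing claudin, averaged 7442 ± 692 normalised counts in vehicle, 6991 ± 892 in anti-PD-1, 8114 ± 964 in letrozole and 7860.4 ± 615 in letrozole + anti-PD-1 tumours. Its letrozole difference averaged over both arms was 0.15 on the log2 scale (95% interval −0.00 to 0.30, limma adjusted p = 0.226). Cldn4, another claudin of simple epithelia, averaged 8601 ± 2066, 7606 ± 1224, 8136 ± 929.9 and 8278 ± 1589, a letrozole difference of 0.03 (−0.21 to 0.26). Every group overlapped every other for both genes.

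Cldn7, the partner of EpCAM at the lateral membrane, averaged 4107 ± 478, 4359.8 ± 1352, 4418 ± 518 and 4149 ± 424 normalised counts in vehicle tumours, those given the antibody, those given letrozole and those given both. Its letrozole difference was 0.04 (−0.18 to 0.25), so an increase of the size seen in Epcam lies outside the interval. Ocln, the gene of occludin, a membrane protein of the tight junction strands, averaged 3474 ± 540.3, 2969.8 ± 330.0, 3297 ± 118 and 3330.1 ± 402. Anti-PD-1 was 0.22 below vehicle for Ocln (−0.44 to 0.00, unadjusted p = 0.0537, adjusted p = 1.00), which did not pass, and the groups overlapped. The letrozole difference of Ocln was 0.05 (−0.11 to 0.21).

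**Figure D3:**
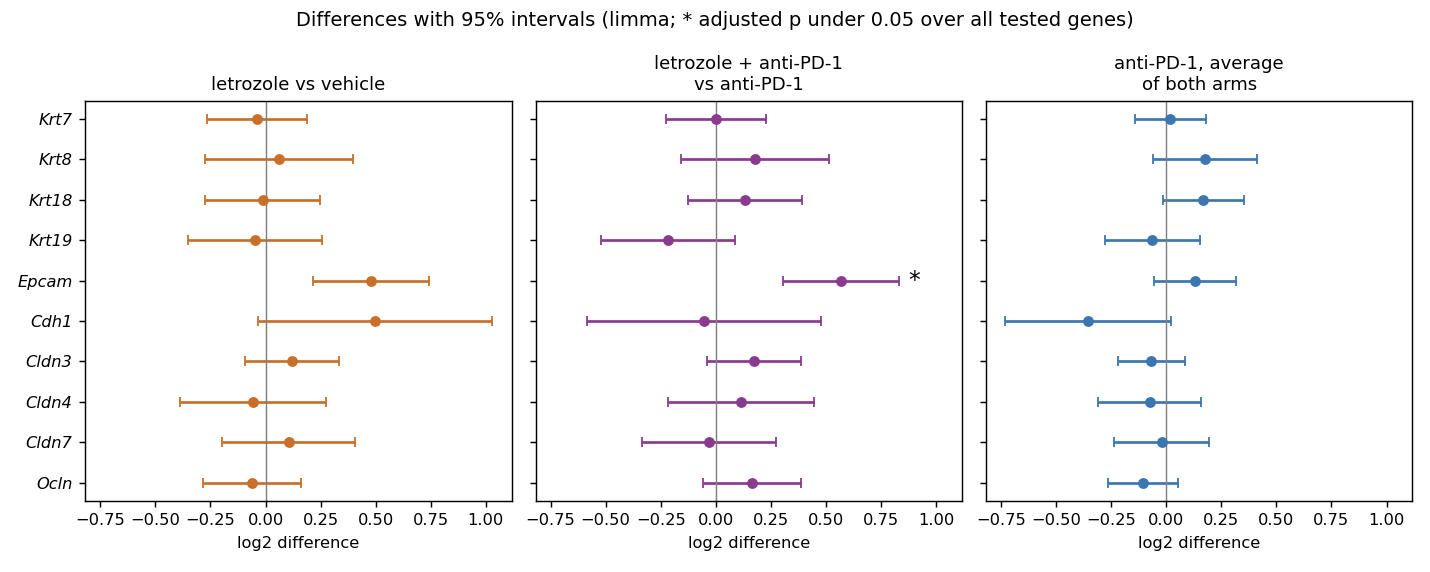
Log2 differences (x axis) with 95% intervals from limma for the 10 genes (rows) in letrozole against vehicle, letrozole + anti-PD-1 against anti-PD-1, and anti-PD-1 averaged over both letrozole arms. Epcam lies to the right of 0 in the first 2 panels, with a star where the adjusted p is under 0.05, and the Cdh1 intervals are the widest.

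No member was called for anti-PD-1. Against vehicle, limma called 0 of 10 members (0 at an unadjusted p under 0.05, 0 by edgeR, 0 by DESeq2) and 0% of genes, with 539 genes at an unadjusted p under 0.05, 0 by edgeR and 5 by DESeq2. In letrozole-treated mice it called 0 of 10 (1 unadjusted, Cdh1, and 0 by edgeR or DESeq2) and 0% of genes, with 627 unadjusted, 0 by edgeR and 9 by DESeq2. Averaged over both letrozole arms, Krt8 was 0.18 higher (95% interval −0.06 to 0.41), Krt18 0.17 (−0.01 to 0.35), Epcam 0.13 (−0.06 to 0.32) and Cdh1 −0.35 (−0.73 to 0.02), with 0 of 10 called by limma, edgeR and DESeq2. That average called 0% of genes by limma, with 746 unadjusted, 0 by edgeR and 1 by DESeq2. The limma test of the interaction called 0 of 10 members (0 unadjusted, 0 by edgeR, 0 by DESeq2) and 0% of genes, with 392 unadjusted, 0 by edgeR and 4 by DESeq2.

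Single tumours were low or high for many members at once. Vehicle replicate 3, with the highest fibroblast mean of its group, was the lowest vehicle tumour for 7 of 10 members and among the 5 lowest of 20 for 8. Anti-PD-1 replicate 5, with the highest fibroblast mean of its group at 10.2, was lowest in the group for 6 and among the 5 lowest of 20 for 8. Anti-PD-1 replicate 4, with a fibroblast mean of 9.13, was among the 5 lowest for 7. Letrozole replicate 5 and letrozole + anti-PD-1 replicate 2, with fibroblast means of 10.64 and 10.31, were among the 5 lowest for 0. Anti-PD-1 replicate 1 was the highest of its group for 7. The mean over the 10 members ran from 13.68 to 14.12 on the log2(value + 1) scale across tumours.

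Bulk tumours hold stroma as well as epithelium, so each member was set against the mean of 12 fibroblast markers over the 20 tumours. That mean ran from 5.63 to 10.80 in vehicle, 6.80 to 10.16 in anti-PD-1, 8.26 to 10.64 in letrozole and 8.20 to 10.31 in letrozole + anti-PD-1 tumours on the log2 scale. The most negative relation was that of Ocln, with r = −0.55 (two-sided permutation p = 0.0117, adjusted over 10 relations 0.117) and rho = −0.54 (permutation p = 0.0145). Without the 2 tumours farthest from the median fibroblast mean, vehicle replicate 4 and anti-PD-1 replicate 2, r was −0.36. Epcam had r = 0.00 (permutation p = 0.995), and none of the 10 passed after adjustment. Without vehicle replicate 3 and anti-PD-1 replicate 1, r was −0.52 for Ocln (adjusted permutation p = 0.270) and 0.14 for Epcam (adjusted 0.827).

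With values centred within each group, r was −0.56 for Epcam, −0.55 for Cldn3 and −0.66 for Ocln, each with an adjusted permutation p of 0.0555, and the other 7 lay between −0.25 and 0.19. Within groups these 3 tended to be lower in tumours with a higher fibroblast mean, short of the threshold. The fibroblast means of the letrozole-treated tumours, 8.20 to 10.64, lay inside the range of the others, 5.63 to 10.80, whose upper end is vehicle replicate 3. Without that tumour the others reached 10.16, and letrozole replicate 5 (10.64) and letrozole + anti-PD-1 replicate 2 (10.31) were above them.

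**Figure D4:**
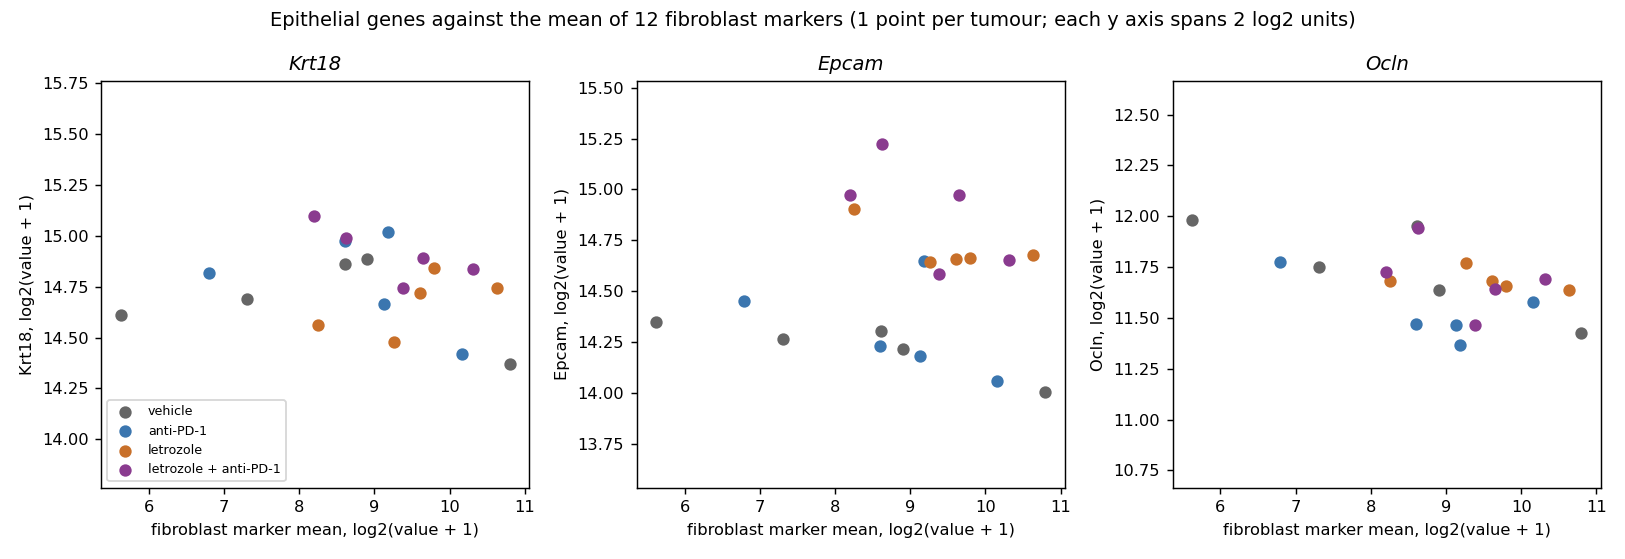
Log2(value + 1) of Krt18, Epcam and Ocln (y axes, each spanning 2 log2 units) against the mean log2(value + 1) of 12 fibroblast markers (x axis), 1 point per tumour, coloured by group. For Epcam, 8 of 10 letrozole-treated tumours lie above all others. Fibroblast means of the letrozole-treated tumours run from 8.20 to 10.64, a narrower range than 5.63 to 10.80 in the others. Ocln tends downward.

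Most pairs of members were only loosely related. Over 45 pairs the median r across tumours was 0.24, with 7 pairs above 0.5 and 8 below 0. After Krt8 with Krt18, the highest were Krt7 with Krt8 at 0.66 (rho 0.60), Krt7 with Cldn4 at 0.64 (rho 0.60) and Krt8 with Cldn4 at 0.62 (rho 0.56). The lowest was Krt18 with Cdh1 at −0.33 (rho −0.19). All points share library scaling, so these are descriptions without a test.

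The genes whose log2 levels were most like each member over the 20 tumours were listed as a description. For Epcam they were Hacd3, an enzyme of very long chain fatty acid synthesis, at r = 0.88 (rho 0.90), and Spint1, an inhibitor of epithelial surface proteases, at r = 0.88 (rho 0.86). For Cdh1 they were Hid1 at r = 0.88 (rho 0.81) and Rhoc at r = 0.87 (rho 0.77), which dropped to 0.71 and 0.66 without the 2 farthest tumours. Krt19 was most like Prelid2 (r = 0.85, rho 0.68) and the actin gene Actg1 (r = 0.85, rho 0.74), and these were 0.69 and 0.67 without the 2 farthest.

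Among the rest, Krt7 and Cldn4 shared the galectin gene Lgals3, at r = 0.79 and 0.77. Krt7 was also like Aldoart1 (0.76), a retrogene with a mean of 9.25 normalised counts, and Cldn4 like the kinase gene Mark4 (0.76). Krt8 and Krt18 were each most like the other and next like the pseudogene Krt8-ps, at 0.93 and 0.89, whose reads cannot be separated with certainty from those of Krt8. Cldn3 was most like Wbscr25 (0.84), a gene on the opposite strand that shares 3.18% of the exon bases of Cldn3, and Trim32 (0.73). Cldn7 was most like Rcn2 (0.85) and Atp6v0c (0.82). Ocln was most like the sheddase genes Adam10 (0.75) and Adam17 (0.71).

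The other junction genes were tested for letrozole in the same way, where 7% of all genes were called. Of 20 tested tight junction and polarity genes, limma called 1 higher and 0 lower for letrozole averaged over both arms, with a median difference of 0.10 against 0.03 over all genes. The called gene was Cgnl1, which encodes paracingulin, at 2459.9 ± 475, 2297 ± 124, 3020.2 ± 418 and 2971 ± 521 normalised counts in vehicle tumours, those given the antibody, those given letrozole and those given both (log2 0.33, adjusted p = 0.0364). It was called in 18 of 35 alternatives, with adjusted p from 0.0131 to 0.149. Of 16 adherens junction and desmosome genes, 2 were called higher and 0 lower, with a median of 0.01: Jup, the gene of plakoglobin (log2 0.23, adjusted p = 0.0378, called in 18 of 35 alternatives, 0.0153 to 0.343), and Nectin1, an adhesion receptor (log2 0.38, adjusted p = 0.0434, called in 15 of 35, 0.0152 to 0.526). The highest adjusted p of all 3 genes came without the 4 tumours with raised muscle markers, where the log2 differences were 0.34 for Cgnl1, 0.17 for Jup and 0.19 for Nectin1. The catenin genes Ctnnb1 and Ctnna1, which link E-cadherin to actin, differed by −0.00 each and are named after their values were seen.

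Among 19 tested epithelial regulators and surface proteins, 3 rose and 1 fell with letrozole averaged over both arms, against 7% of all genes in either direction and 3.29% higher, with a median of 0.10. Among those that rose, the mucin gene Muc1 rose by 0.48 on the log2 scale (limma adjusted p = 0.0150) and Spint1 by 0.34 (adjusted p = 0.0192). Cd24a, the gene of the surface glycoprotein CD24, went the other way and fell by 0.82 (adjusted p = 0.00435), from 50636 ± 13332 in vehicle and 47373 ± 14074 in anti-PD-1 to 30653.5 ± 7621 in letrozole and 24447 ± 4628 in letrozole + anti-PD-1 tumours. Without the 4 tumours with raised muscle markers, the adjusted p was 0.108 for Muc1, 0.169 for Spint1 and 0.0921 for Cd24a, with log2 differences of 0.51, 0.33 and −0.68. With median centring it was 0.0549 for Muc1 and 0.0859 for Spint1. Grhl2, a grainyhead-like regulator named after its value was seen, differed by 0.02 (95% interval −0.16 to 0.20).

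The lists of other cell types gave no gene that passed for letrozole averaged over both arms, apart from 1 of 10 macrophage markers, Cd14 (log2 0.49, limma adjusted p = 0.0245). Of the macrophage markers 10 of 10 were higher, 7 at an unadjusted p under 0.05, 1 by edgeR and 1 by DESeq2. The Cd14 call was lost without the 4 tumours with raised muscle markers (limma adjusted p = 0.110), where the log2 difference was 0.52. It was also lost with transcripts summed (0.0522) and without vehicle replicate 1 (0.0519), anti-PD-1 replicate 4 (0.0514) or letrozole + anti-PD-1 replicate 5 (0.0529). The other counts were 0 of 12 for mesenchymal genes and their regulators (1 at an unadjusted p under 0.05, 0 by edgeR, 1 by DESeq2), 0 of 12 for fibroblast markers (4, 0 and 0), 0 of 8 for basal keratins and Trp63 (2, 0 and 3), 0 of 8 for T cell markers (1, 0 and 0) and 0 of 8 for endothelial markers (1, 0 and 0). They were 0 of 8 for adipocyte markers (0, 0 and 0) and 0 of 9 for skeletal muscle markers (4, 6 and 5), and no B cell marker passed the filter. Over all genes, 4541 of 19844 were at an unadjusted p under 0.05, 1296 of 19844 were called by edgeR and 1966 of 19772 by DESeq2. All tested list medians were above that of all genes. They were 0.51 for the mesenchymal, 0.92 for the fibroblast, 0.73 for the macrophage and 0.76 for the basal list. The muscle list had 2.05, the T cell list 0.85, the endothelial list 0.48 and the adipocyte list 0.62. Higher were 6 of 8 basal, 9 of 9 muscle, 7 of 8 T cell, 8 of 8 endothelial and 6 of 8 adipocyte genes. Of the 12 fibroblast markers 11 were higher and 1 lower, and of the 12 mesenchymal genes 10 were higher and 2 lower, against 54.1% of all genes higher. Those with the smallest p included members that went the other way. Among the mesenchymal genes, fibronectin Fn1 was −0.68 (adjusted p = 0.147) and N-cadherin Cdh2, a counterpart of Cdh1, 1.12 (adjusted p = 0.223). The basal regulator Trp63 was 2.27 (adjusted p = 0.0886), and the fibroblast genes Dcn and Pdgfra were −1.26 and 0.55 (adjusted p = 0.124 and 0.180), so none of these passed. The basal list differed between single comparisons. For letrozole against vehicle its median was 2.39 against 0.03 over all genes (0 of 8 by limma, 4 unadjusted, 1 by edgeR, 5 by DESeq2). For the combination against letrozole alone it was −2.91 against −0.01 (0 of 8, 7 unadjusted, 0 and 4). On the log2(value + 1) scale the basal mean was 10.10 and 10.17 in letrozole replicates 4 and 5, tumours with raised muscle markers. It was 8.07 in replicate 2. Replicates 1 and 3, at 5.82 and 6.11, lay inside the vehicle range of 5.42 to 6.22. The combination ran from 4.39 to 6.54. Both differences therefore rest mainly on letrozole replicates 2, 4 and 5.

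Levels of these lists also varied widely within groups. The summed level of the 12 fibroblast markers ran from 2571 to 67989 normalised counts in vehicle, 6053 to 43012 in anti-PD-1, 9533 to 77279.8 in letrozole and 12372 to 46808 in letrozole + anti-PD-1 tumours, with Lum and Dpt each at 0 in 2 tumours. The summed muscle list ran from 58.6 to 98.3 in vehicle, 79.1 to 277 in anti-PD-1, 58.6 to 5135 in letrozole and 50.9 to 3674 in letrozole + anti-PD-1 tumours, with Myh1, Myh2 and Myh4 at 0 in 13, 14 and 13 of 20. The summed level of the 10 members ran from 229759 to 308140, 233158 to 328957, 254868 to 308370 and 250348 to 302211. The part of these cell types in the Epcam difference was not tested beyond the values without the libraries named.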

How the data were processed

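Bulk RNA was sequenced from 20 tumours, 5 in each of 4 groups taken from the sample labels. The submitters' processing notes name STAR 2.7.10a, DESeq2 and the build GRCm39 (mm39), and no source used here names the read counter, annotation or use of strand. The deposited table, made by the authors, has 1 normalised signal value per transcript and library, which behaves as a read count divided by a size factor: with size factors of 0.472 to 1.46, 100% of values were whole reads within 0.001. Of reads of 1 to 20 per transcript, 57.9% to 69.6% were even numbers, so a fragment may have been counted at both ends and the recovered reads are not all independent.

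Of 127442 transcripts, 118889 were named from GENCODE vM21 (93.3%). The 8553 unnamed transcripts, with 1.79% to 2.76% of reads, and 49 symbols shared by several genes were left out. The transcript with the highest total stood for each of 38947 genes, and 19844 that reached 10 in 5 or more libraries were tested. Transcripts of a gene share reads, so values are not sums over a gene.

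The test was limma 3.58.1 with a trend (R 4.3.3) on log2(value + 1), with 4 group means and 16 residual degrees of freedom. Fold changes are on that scale, adjustment was Benjamini-Hochberg over all tested genes, and the threshold was an adjusted p of 0.05. edgeR 4.0.16 and DESeq2 1.42.0 were run on the recovered reads as alternatives. The limma fit was also run on simulated counts with known changes, drawn with the same dispersion for every gene and without outlying tumours. The outcome is not reported here, and no result rests on it. Ratios were compared by exact permutation, and correlations with the fibroblast mean used 100000 permutations (scipy 1.17.1, numpy 2.4.6).

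All 10 members are named. From every other list the genes past the threshold are named (1 is not reported here), or up to 3 with the smallest p where none passed, and for each member the 2 genes with the highest r, leaving out predicted genes. The members, lists and tests were chosen with earlier results of these data known. Alternatives covered the pseudocount, filter, scaling, weights, samples in the fit, replicate block and each left-out tumour, and leaving out the 4 tumours with raised muscle markers, the Epcam to Krt8 ratio and its tests were added after seeing the data.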

Additional observations from a re-analysis of the deposited data

Results flagged for a closer look

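In 40 sets of 5 tumours, 1 for each member and group, 3 had a tumour set apart from the other 4 by more than Dixon's critical value, where chance gives about 1 in 20 sets. Epcam in letrozole replicate 3 was the highest of its group at 30663.5 normalised counts, and the next was 26188. Cldn4 in letrozole replicate 2 was the lowest of its group at 6520.2, and the next was 8255.5. Cldn7 in anti-PD-1 replicate 1, the library with the fewest reads, was the highest of its group at 6695, and the next was 4140.1.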

How the results depend on the processing

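Of 80 member values (10 genes in 8 comparisons), 77 were not called, and 76 of those were called under no alternative, while 36 changed sign under at least 1. The exception was Epcam for letrozole against vehicle. Members called there went from 0 to 1 under quantile normalisation (adjusted p = 0.00673), array weights (0.0222), a limma fit of those groups alone (0.0426), DESeq2 (0.0145) and without vehicle replicate 3 and anti-PD-1 replicate 1 (0.0428). Leaving out 1 tumour gave 0 to 1. With antibody, the 1 called member became 0 with no filter (0.0570), with median centring (0.0998), with those groups alone (0.156) and without the 4 tumours with raised muscle markers (0.0702), and 0 to 1 leaving out 1 tumour. For the combination against vehicle it became 0 with median centring (0.0558) and with those groups alone (0.0541). The cause was not tested. Averaged over both arms the Epcam log2 difference was 0.48 to 0.63 (adjusted p 1.46e-06 to 0.0179).

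The labels do not say whether replicate numbers pair tumours. Same-numbered tumours deviated together little: over 30 such pairs r was −0.34 to 0.20 and 3 were over 0.1. With a replicate block Epcam had an adjusted p of 0.0946 for letrozole against vehicle, 0.0459 with antibody, 0.0187 for the combination against vehicle and 0.00322 averaged. The block changed no member's call, and it ended those of Cgnl1 (0.0528) and Nectin1 (0.0640).

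Counts over all genes depended more on single tumours. Leaving out the 4 muscle-marker tumours kept only replicates 2 and 3 of the letrozole group. For letrozole against vehicle the 190 calls became 126 with no filter, 732 with array weights, 622 by DESeq2, 1131 without vehicle replicate 3 and anti-PD-1 replicate 1, 11 without the 4 muscle-marker tumours and 85 to 814 leaving out 1 (vehicle replicate 5 or 3). With antibody the 213 became 110 with no filter, 60 with those groups alone, 521 by DESeq2, 97 without the 4 tumours, and 72 to 263 leaving out 1 (anti-PD-1 replicate 4 or vehicle replicate 3). For the combination against vehicle the 234 became 560 with array weights, 122 with those groups alone, 684 by DESeq2, 956 without vehicle replicate 3 and anti-PD-1 replicate 1, 143 without the 4 tumours, and 122 to 694 leaving out 1 (vehicle replicate 1 or 3). Averaged, the 1389 became 2575 with array weights, 2469 without vehicle replicate 3 and anti-PD-1 replicate 1, 284 without the 4 tumours, and 936 to 2336 leaving out 1 (letrozole + anti-PD-1 replicate 5 or vehicle replicate 3).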
